A study of Mus musculus with 18 samples.

Results

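Adult brain microglia were taken here as the single cells of the 4 libraries sorted from adult mouse brain, and they made up 631 of the 3012 cells kept over all 18 libraries. A well was kept where its annotation gave 1 sorted cell and where its gene rows held at least 300 unique molecular identifiers (UMIs), the random tags that mark single captured RNA molecules. Of 760 adult wells with 1 cell, 163, 158, 163 and 147 passed in libraries 1 to 4, and 129 wells, with a median of 181 UMIs, were left out. The adult cells came from untreated CX3CR1-GFP+ mice on the C57BL/6J background, in which a fluorescent reporter marks cells that express the fractalkine receptor, and they were gated as CD45int CD11Bint CX3CR1-GFP+. The labels give no age beyond adult. The adult cells were set against 992 cells in 6 libraries from brain at embryonic day 18.5 (E18.5), sorted through the same gate. The E12.5 groups held 718 cells in 4 libraries from brain and 671 cells in 4 libraries from yolk sac, both gated as CD45+ CD11B+ CX3CR1-GFP+. All 4 groups shared the reporter strain and were untreated. RNA was read at its 3′ end by MARS-seq, a plate-based single-cell method with UMIs.

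Microglia are the resident macrophages of the brain parenchyma. They arise from progenitors of the embryonic yolk sac, settle in the brain before birth, and are maintained there with signals through the receptor Csf1r and through transforming growth factor beta (TGF-beta). In the healthy adult brain they are known for a homeostatic set of genes, for the clearance of cells and synapses with help of complement, and for strong lysosomal activity.

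Fewer RNA molecules were counted per adult cell than per cell of any other group. The median was 521 UMIs per adult cell (quartiles 422 and 677) on 353 gene rows, against medians of 983, 1725 and 1511 UMIs in E18.5 brain, E12.5 brain and yolk sac. Over libraries the medians averaged 517 ± 40.02 UMIs in adult brain (SD, n = 4), against 988 ± 172 (n = 6), 1861 ± 750 (n = 4) and 1507 ± 136 (n = 4). The difference passed the two-sided exact permutation test each time (adjusted p = 0.0143, 0.0286 and 0.0286 over the 3 comparisons). RNA content, capture and sequencing depth per library cannot be told apart in these counts. Adult libraries totalled 74562 to 99494 UMIs and the others 143876 to 534219. Levels below are CPM, a gene's UMIs per 1000000 UMIs of a library's kept cells, and in such sums fewer cells with a gene's RNA and less of it per cell cannot be told apart. The annotation gives 1 subject number per age and puts 2 libraries on a plate, so p-values measure the spread between libraries, which may be technical. All adult and E18.5 libraries and 2 of the 4 yolk sac libraries belonged to 1 sequencing batch. The E12.5 brain libraries shared no batch with the adult ones, and a batch term in the fit rests on the yolk sac libraries, which lay in both the adult batch and 1 of the batches of E12.5 brain.

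The label was set beside the microglial genes Selplg, Tmem119, Ecscr, Pmp22 and Lrrc3, which were chosen with earlier results of these data known. All 5 also met the rule given below for genes higher in adult, so the shares across groups describe and do not test the label. At least 1 of the 5 was found in 629 of 631 adult cells (99.7%), and at least 3 of them in 347 cells. The corresponding shares of cells with at least 1 were 87.8% in E18.5 brain, 83.4% in E12.5 brain and 30.3% in yolk sac, although their cells held more UMIs. With further microglial genes added, among them P2ry12, Cx3cr1, Csf1r, Sall1, Olfml3, Fcrls, Siglech and Gpr34, the 14 markers made up 5.15% of adult UMIs, from 1.40% in the lowest adult cell to 10.8% in the highest, and every adult cell had at least 5 UMIs on them. In E18.5 brain, E12.5 brain and yolk sac the 14 markers held 2.49%, 1.16% and 0.496% of UMIs. Defining markers of T and NK cells, neurons, endothelial cells and choroid plexus were nearly absent from the adult cells, with 1, 3, 5 and 0 UMIs in all. Neutrophil markers, however, held 1514 UMIs and were found in 485 adult cells, and monocyte markers held 188 UMIs in 90 cells. Both are described further below. Of the sort genes, Cx3cr1 averaged 325 ± 75.4 CPM in adult brain (SD, n = 4) and 311 ± 80.2 in E18.5 brain, and did not pass the test between them. Its log2 fold change was 0.09 ± 0.27 SE (edgeR adjusted p = 0.865). Ptprc, which encodes CD45, averaged 60.6 ± 24.3 CPM in adult libraries and 209 ± 69.4, 187 ± 105.1 and 189 ± 47.2 in E18.5 brain, E12.5 brain and yolk sac. It was lower in adult each time. For Ptprc the log2 fold changes were -1.74, -1.63 and -1.64 (edgeR adjusted p = 0.00136, 0.00170 and 0.00125). Itgam, which encodes CD11b, averaged 676 ± 60.6 CPM in adult libraries and passed the test against yolk sac alone (223 ± 137 CPM, log2 fold change 1.58 ± 0.40 SE and edgeR adjusted p = 0.00389). With the counts of the 2 libraries of each plate summed, that call was lost (edgeR adjusted p = 0.0629).

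Secreted, lysosomal and complement genes were among the most abundant genes of the adult cells. The 20 most abundant genes, leaving out ribosomal, mitochondrial and numbered ones and rows that join several symbols, held 19.2% of all adult UMIs. They were picked for their adult level, so their lower shares of 12.7%, 8.78% and 6.91% in E18.5 brain, E12.5 brain and yolk sac are no finding. Each group's own 20 most abundant rows, of any kind, held 20.2% in adult brain, against 16.2%, 14.4% and 14.6% in those groups. Cst3, which encodes the secreted protease inhibitor cystatin C, came first and was found in all 631 adult cells, with up to 104 UMIs in a single cell. Its level was 48505, 49317, 36730.0 and 43883 CPM in adult libraries 1 to 4, against 13039, 14271 and 15750.0 as the lowest, median and highest of the E18.5 libraries, 7786, 7078, 9066 and 8881 in E12.5 brain and 5506, 5479, 5277 and 5206 in yolk sac. The adult libraries lay above all others, with adult library 3 the lowest of its group. The log2 fold changes were 1.68, 2.46 and 3.04 against E18.5 brain, E12.5 brain and yolk sac (SE 0.11, 0.12 and 0.13, edgeR adjusted p = 8.08e-16, 2.13e-19 and 7.20e-23), and sets of 3 values below follow that order.

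The next gene was Ctsd, a lysosomal aspartic protease, with 16015 ± 759.8 CPM in adult libraries and 12613 ± 939 in E18.5 brain. The fitted log2 fold change was 0.38 ± 0.11 SE (edgeR adjusted p = 0.0117). The 3 chains of complement C1q, the molecule that starts the classical pathway, also ranked high. C1qa, C1qb and C1qc averaged 13099 ± 732, 11187 ± 518 and 10819 ± 278 CPM in adult brain, against 7926 ± 1074, 9903 ± 365 and 8866 ± 611 in E18.5 brain. C1qa and C1qc were higher in adult than in E18.5 brain (log2 fold changes 0.76 ± 0.12 SE and edgeR adjusted p = 1.28e-05, and 0.32 ± 0.10 SE and edgeR adjusted p = 0.0180). C1qb did not pass the test (log2 fold change 0.21 ± 0.10 SE and edgeR adjusted p = 0.129). The C1qc call was lost without any single adult library and without E18.5 library 1, 2 or 4 (edgeR adjusted p = 0.0510 to 0.0779). The Ctsd call was lost without adult library 4 (edgeR adjusted p = 0.0714). All 3 C1q chains were higher in adult than in both E12.5 groups, where log2 fold changes lay between 0.97 and 2.72. Csf1r, the receptor on which microglia depend, averaged 11294 ± 459 CPM in adult brain and 7967 ± 407 in E18.5 brain, a smaller step that passed the test. On the log2 scale the difference was 0.53 ± 0.11 SE (edgeR adjusted p = 2.56e-04). With plate sums the calls of Csf1r, Ctsd and C1qc were lost (edgeR adjusted p = 0.0593, 0.215 and 0.283). Those of Ctsd and C1qc were also lost with no filter on low counts (edgeR adjusted p = 0.337 and 0.589) and at 500 UMIs per cell (edgeR adjusted p = 0.0935 and 0.0634).

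Selplg encodes the P-selectin ligand PSGL-1 and ranked ninth in adult cells, where it was found in 621 of 631. It was nearly the same in all adult libraries, at 10483, 10241, 10453 and 10273 CPM. The other groups lay far below, at 1299.7 to 1617 CPM in E18.5 brain, 712 to 849 in E12.5 brain and 189 to 214 in yolk sac. For Selplg the log2 fold changes were 2.81, 3.72 and 5.65 (edgeR adjusted p = 2.18e-22, 5.52e-24 and 1.79e-29). Tmem119, a transmembrane protein used to tell microglia from other macrophages, had 5417, 6055, 6182 and 5324 CPM in adult libraries, against 1439 to 1732 in E18.5 brain, 631 to 869.8 in E12.5 brain and 18.1 to 37.0 in yolk sac. For Tmem119 the log2 fold changes were 1.903, 2.96 and 7.80 (edgeR adjusted p = 1.31e-14, 6.53e-19 and 2.28e-29). Neither gene had a library of another group within the adult range. Trem2, a receptor for lipids and lipoproteins, averaged 4219.8 ± 385 CPM in adult and 2663 ± 240.3 in E18.5 brain. For Trem2 the log2 fold change was 0.69 ± 0.12 SE (edgeR adjusted p = 3.22e-05). Sparc, a matricellular protein, Olfml3, a secreted olfactomedin-domain protein, and Cd81, a tetraspanin, were also higher in adult than in E18.5 brain. They had log2 fold changes of 0.76 (SE 0.16, edgeR adjusted p = 4.76e-04), 0.43 (SE 0.16, edgeR adjusted p = 0.0426) and 0.57 (SE 0.13, edgeR adjusted p = 0.00157). Among the 20, Lgmn, a lysosomal cysteine protease, Fcrls, an Fc receptor-like protein, and Sepp1, which carries selenium, did not pass the test against E18.5 brain. Their log2 fold changes were 0.03 (SE 0.12, edgeR adjusted p = 0.887), -0.07 (SE 0.12, edgeR adjusted p = 0.728) and -0.18 (SE 0.13, edgeR adjusted p = 0.351). Serinc3 and Itm2b, which encode membrane proteins, passed it (log2 fold changes 0.78 ± 0.15 SE and edgeR adjusted p = 1.15e-04, and 0.55 ± 0.14 SE and edgeR adjusted p = 0.00273). The 2 abundant genes that were lower in adult than in every other group were Actb, the cytoskeletal beta-actin, and Lrrc58. Actb averaged 10769 ± 1003 CPM in adult and 18966 ± 1386 in E18.5 brain. For Actb the log2 fold change was -0.78 ± 0.10 SE (edgeR adjusted p = 6.32e-08). Lrrc58 averaged 2912 ± 331 CPM in adult and 3919.8 ± 259.9 in E18.5 brain. The log2 fold change was -0.39 ± 0.14 SE (edgeR adjusted p = 0.0410). The calls of Olfml3 and Lrrc58 against E18.5 brain were near the threshold. The first was lost without any 1 of 8 libraries (adult 1, 3 and 4, E18.5 1, 2, 3, 5 and 6, edgeR adjusted p = 0.0539 to 0.144). The second was lost without any 1 of 6 (adult 3 and 4, E18.5 1, 3, 4 and 5, edgeR adjusted p = 0.0520 to 0.120). With plate sums the calls of Olfml3, Lrrc58, Cd81 and Itm2b were lost (edgeR adjusted p = 0.342, 0.180, 0.0899 and 0.126). The Itm2b and Olfml3 calls were also lost with no filter on low counts (edgeR adjusted p = 0.0706 and 0.330), the Olfml3 and Lrrc58 calls at 500 UMIs per cell (edgeR adjusted p = 0.0604 and 0.101), and the Lrrc58 call in thinned libraries (edgeR adjusted p = 0.182).

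**Figure D1:**
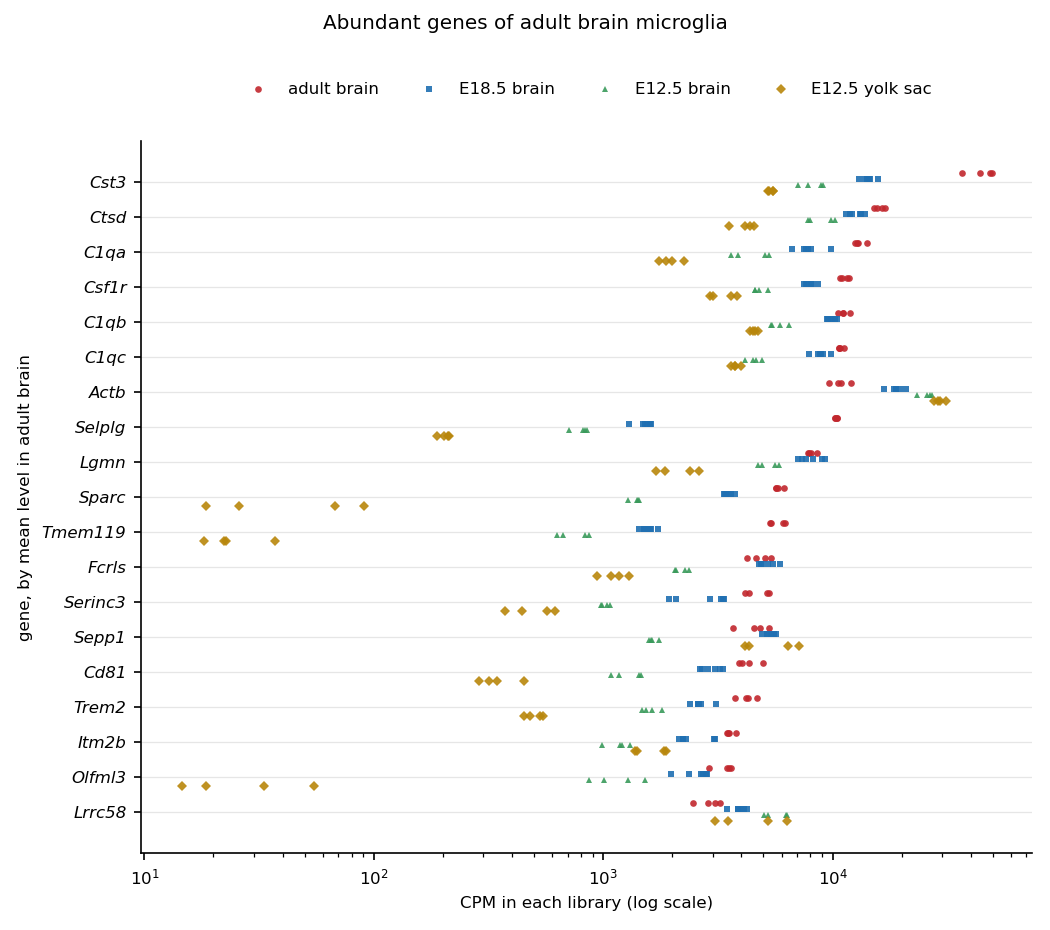
Level of 19 of the 20 most abundant genes in each of the 18 libraries, in CPM on a log scale, with genes ordered by their mean in adult brain. Each point is 1 library and colour and shape give the group. Cst3, Selplg and Tmem119 show adult points apart from all others, while the adult and E18.5 points of Lgmn, Fcrls and Sepp1 overlap, and Actb runs the other way.

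Of the 4883 gene rows tested, 503 (10.3%) were higher and 547 (11.2%) lower in adult than in E18.5 brain, by edgeR's quasi-likelihood test at an adjusted p under 0.05. Against E12.5 brain, 870 (17.8%) were higher and 1013 (20.7%) lower, and against yolk sac 1054 (21.6%) were higher and 1130 (23.1%) lower. Within the sequencing batch of the adult libraries, 527 rows were higher and 642 lower than in E18.5 brain, and 974 higher and 1042 lower than in yolk sac. With no filter on low counts the balance shifted, to 364 higher and 784 lower rows against E18.5 brain, 871 and 1483 against E12.5 brain, and 1119 and 1702 against yolk sac. The 3 comparisons share the adult libraries and are not independent. A gene was taken to set the adult cells apart where it was called in the same direction in all 3 comparisons, by a log2 fold change of at least 1 in each, with no overlap between the 4 adult libraries and the other 14. By that rule 184 rows (3.77%) were higher and 192 (3.93%) lower in adult cells. For comparison, 307 rows (6.29%) had all adult libraries above the other 14, and 290 (5.94%) had them below. When sequencing batch entered the fit as a covariate, the number of higher rows fell to 95, of which 94 were among the 184, and 170 rows were lower. In that fit Thrsp, Jam2, P2ry12, Pmepa1, Tgfbr1 and Ptprc were not called against E12.5 brain. The log2 fold change there was 3.97 for Jam2, 1.67 for P2ry12, 1.36 for Pmepa1, 0.73 for Tgfbr1 and -0.91 for Ptprc, against 4.23, 2.40, 1.95, 1.27 and -1.63 without the covariate (edgeR adjusted p = 0.0861 to 0.9997 with it, Thrsp included).

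Among the named genes, ordered by the smallest of their 3 log2 fold changes, Thrsp came first. It is the gene of a nuclear protein known from thyroid hormone-driven lipid synthesis in liver and fat. It had 131, 242, 125 and 241 CPM in adult libraries, spread over 50 cells, and 65 UMIs in all. The 6 E18.5 libraries held 1 UMI of it, and the 8 E12.5 libraries none. Its share of UMIs in adult cells was 191 (95% counting interval 33.1 to 7671) times that in E18.5 brain (edgeR adjusted p = 4.30e-09). With 3 counts over the group set as the floor, it was at least 89.4-fold higher than in E12.5 brain and at least 67.4-fold higher than in yolk sac (edgeR adjusted p = 3.60e-10 and 6.77e-10). Lrrc3, which encodes a membrane protein with leucine-rich repeats, had 312, 439.6, 436 and 402 CPM in adult libraries, against 0, 18.7 and 25.2 as the lowest, median and highest of E18.5 brain, 6.07, 1.87, 0 and 0 in E12.5 brain and 0 in all yolk sac libraries. The lowest adult library thus lay far above the highest of any other group (log2 fold change 4.61 ± 0.39 SE and edgeR adjusted p = 8.70e-12 against E18.5 brain, at least 148-fold higher than in yolk sac). Pmp22, best known as a protein of peripheral myelin, had 603, 582, 447 and 604 CPM in adult libraries, with library 3 the lowest, against 17.2 to 85.0 in E18.5 brain, 0 to 6.07 in E12.5 brain and 14.8 to 51.8 in yolk sac. For Pmp22 the log2 fold changes were 3.50, 7.47 and 3.81 (edgeR adjusted p = 9.87e-12, 2.01e-16 and 2.00e-12). Tgm2, tissue transglutaminase, which crosslinks proteins, had 191, 87.9, 83.1 and 93.9 CPM in adult libraries, where library 1 stood above the other 3. It had no UMI in E18.5 brain and was at least 41.2-fold higher (edgeR adjusted p = 6.55e-07).

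Slc1a3, a glutamate transporter better known from astrocytes, was found in 40 adult cells at 111, 121, 187 and 121 CPM in the 4 libraries, against 5.31 to 22.97 CPM in E18.5 brain and no UMI in either E12.5 group (log2 fold change 3.45 ± 0.53 SE and edgeR adjusted p = 8.19e-06 against E18.5 brain). Of the other astrocyte markers, Gfap, Aqp4, Slc1a2, Aldoc and Clu, 4 were at 0 in the adult cells, and the 6 markers together, Slc1a3 included, held 50 UMIs. Jam2, a junctional adhesion molecule, averaged 148 ± 28.8 CPM in adult and 7.97 ± 8.73, 7.86 ± 5.62 and 0 CPM in E18.5 brain, E12.5 brain and yolk sac. Its log2 fold changes against the embryonic brains were 4.21 (SE 0.60, edgeR adjusted p = 1.30e-06) and 4.23 (SE 0.61, edgeR adjusted p = 5.58e-07), and it was at least 55.0-fold higher than in yolk sac. Ddit4, a stress-induced inhibitor of mTORC1 signalling, averaged 118 ± 54.3 CPM in adult libraries and 19.2 ± 10.9 in E18.5 brain. Its log2 fold change was 2.66 ± 0.51 SE (edgeR adjusted p = 1.20e-04). Garnl3, Fam167b and Fam102b completed the named set with 154 ± 15.1, 109 ± 43.3 and 257 ± 104 CPM in adult brain. Against E18.5 brain they had log2 fold changes of 3.10 (SE 0.46, edgeR adjusted p = 2.09e-06), 3.65 (SE 0.75, edgeR adjusted p = 4.77e-04) and 2.67 (SE 0.34, edgeR adjusted p = 8.18e-08). Most of these genes were seen as 1 to 3 UMIs in a small share of adult cells, from 34 cells for Tgm2 to 146 for Pmp22. Prtn3 also met the rule, but its adult libraries differed widely among themselves.

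**Figure D2:**
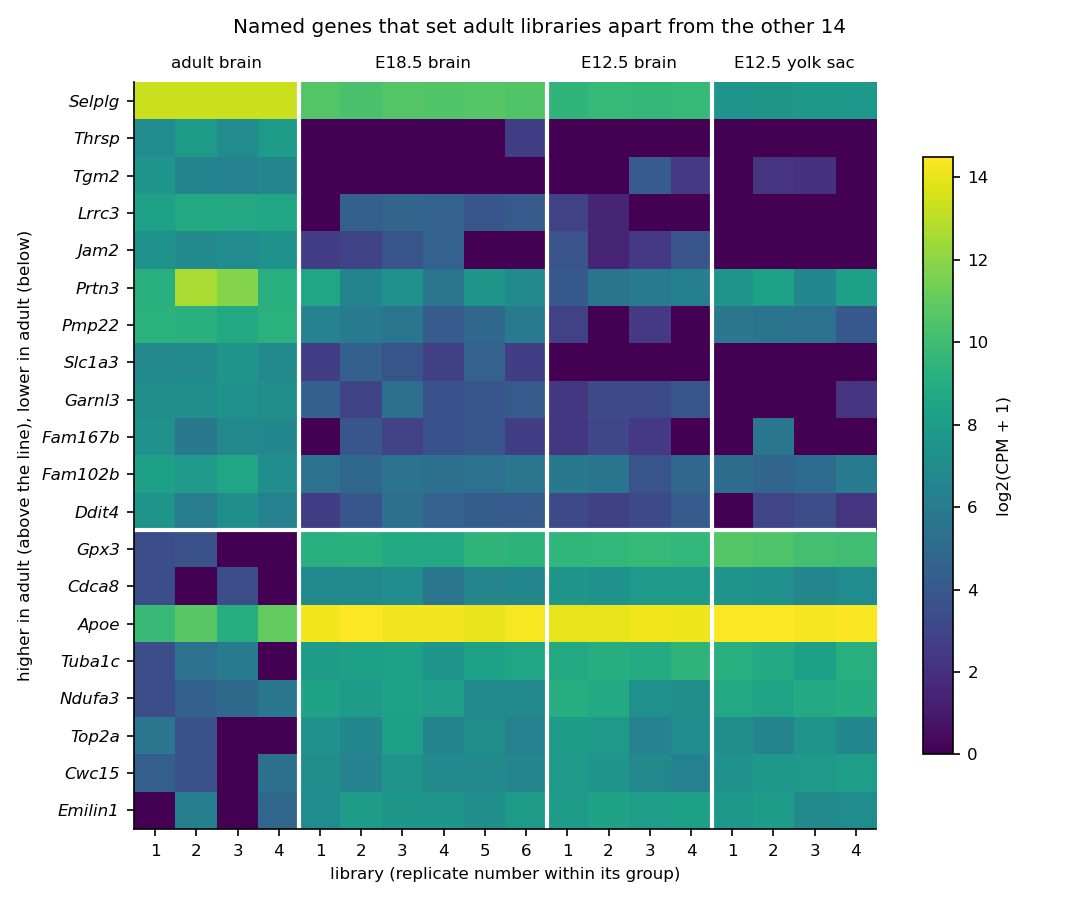
Level of the 12 named genes that were higher and the 8 that were lower in adult cells than in all 3 other groups, as log2(CPM + 1), with 1 column per library and the adult libraries at the left. Thrsp, Tgm2, Lrrc3, Jam2 and Slc1a3 were at or near 0 in most embryonic libraries, and Prtn3 shows 2 high and 2 lower adult libraries.

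The sequence just upstream of the transcription start is shown for 4 of these genes, to set the start regions of genes that were higher in adult than in every other group beside each other. The windows are the 250 bases before the RefSeq start on mouse build GRCm38.p6 (the submitters' notes name mm9, so no coordinate of the files was used), read 5′ to 3′ on the gene's strand, with motif matches in capitals.
Thrsp: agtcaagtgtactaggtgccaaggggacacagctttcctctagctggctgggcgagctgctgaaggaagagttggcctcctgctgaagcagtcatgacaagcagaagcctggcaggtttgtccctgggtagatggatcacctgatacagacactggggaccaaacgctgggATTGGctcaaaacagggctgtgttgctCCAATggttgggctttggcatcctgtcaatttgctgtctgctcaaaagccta
Lrrc3: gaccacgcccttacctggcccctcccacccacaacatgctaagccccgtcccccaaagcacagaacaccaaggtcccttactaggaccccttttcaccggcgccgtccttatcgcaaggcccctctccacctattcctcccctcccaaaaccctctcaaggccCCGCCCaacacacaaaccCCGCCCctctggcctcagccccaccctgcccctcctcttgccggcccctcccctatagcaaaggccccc
Slc1a3: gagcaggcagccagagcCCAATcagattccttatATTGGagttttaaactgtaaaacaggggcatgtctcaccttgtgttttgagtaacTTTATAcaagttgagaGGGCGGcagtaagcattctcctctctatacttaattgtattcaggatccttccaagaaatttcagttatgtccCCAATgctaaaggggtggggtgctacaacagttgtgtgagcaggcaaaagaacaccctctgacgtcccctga
Ddit4: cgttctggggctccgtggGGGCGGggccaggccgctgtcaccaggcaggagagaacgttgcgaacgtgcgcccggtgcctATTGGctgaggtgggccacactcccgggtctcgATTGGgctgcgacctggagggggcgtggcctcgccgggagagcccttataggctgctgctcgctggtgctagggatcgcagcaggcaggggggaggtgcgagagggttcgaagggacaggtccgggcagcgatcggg
These are chr7:97417551-97417800, chr10:77902537-77902786, chr15:8710808-8711057 and chr10:59951771-59952020, all on the minus strand. The motifs searched on both strands were the TATA box TATAAA, the CCAAT box CCAAT, the GC box GGGCGG, the ETS core GGAAGT, the AP-1 site TGANTCA, the MEF2 site CTANNNNTAG and the MAF site TGCTGAC. Thrsp held 2 CCAAT boxes, Lrrc3 held 2 GC boxes, Slc1a3 held 1 TATA box, 3 CCAAT boxes and 1 GC box, and Ddit4 held 2 CCAAT boxes and 1 GC box. The TATA match of Slc1a3 lay on the opposite strand and began 161 bases before the start. With 1 promoter kept per symbol, 132 promoters matched symbols of the 184 higher rows, 138 those of the 192 lower rows and 3706 those of the 4883 tested rows. A row that joins symbols could add more than 1. The set of all promoters was not reduced to 1 per symbol. Motif shares of each set are shares of its promoters. A TATA box stood in 10.6% of the higher set, 4.35% of the lower set, 5.83% of all tested rows and 12.4% of all 32851 promoters. A CCAAT box stood in 39.4%, 37.7%, 36.5% and 33.9% of them, and an ETS core in 19.7%, 28.3%, 26.1% and 19.7%. Shares for the GC box were 58.3%, 53.6%, 61.6% and 32.7%, for AP-1 3.79%, 2.17%, 3.64% and 6.75%, for MEF2 4.55%, 3.62%, 2.40% and 3.202%, and for the MAF site 4.55%, 1.45%, 2.78% and 3.81%, in the same order. These matches describe letters in a window and were not tested. The transcripts of the higher set had a median length of 3488 bases, those of the lower set 2152 bases and those of all tested rows 3080 bases.

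Genes that were lower in adult cells were led by Gpx3, a secreted glutathione peroxidase. It had 10.1, 11.0, 0 and 0 CPM in adult libraries, 2 UMIs in all, against 424, 582 and 708 CPM as the lowest, median and highest of E18.5 brain, 734, 766, 823 and 779 in E12.5 brain and 1602, 1455, 1136 and 1072 in yolk sac. The share of UMIs in those 3 groups was 104 (95% counting interval 28.7 to 860.4), 138 (95% counting interval 38.2 to 1144) and 237 (95% counting interval 65.4 to 1957) times that in adult cells (edgeR adjusted p = 1.95e-16, 2.50e-18 and 5.00e-21). Apoe, the main lipid carrier of the brain, had 874, 1736, 519.5 and 2039 CPM in adult libraries. The other groups lay far higher, at 16136 to 22540.0 CPM in E18.5 brain, 15649 to 18904 in E12.5 brain and 19946 to 23075 in yolk sac, with no overlap. For Apoe the log2 fold changes were -3.89, -3.72 and -4.10 (edgeR adjusted p = 2.03e-07, 1.42e-07 and 2.95e-08). Adult libraries 2 and 4 held more Apoe than libraries 1 and 3. Emilin1, an elastin-associated protein of the extracellular matrix, averaged 25.9 ± 36.3 CPM in adult and 194 ± 47.1 in E18.5 brain. The fitted log2 fold change was -2.89 ± 0.49 SE (edgeR adjusted p = 4.46e-05). Tuba1c, an alpha-tubulin, averaged 29.1 ± 29.1 and 289 ± 61.1 CPM in these groups. On the log2 scale the difference was -3.20 ± 0.39 SE (edgeR adjusted p = 1.44e-07). Cwc15, a spliceosome component, averaged 17.8 ± 17.0 and 125 ± 36.5 CPM (log2 fold change -2.83 ± 0.50 SE and edgeR adjusted p = 3.72e-05). The remaining named genes were Top2a, which untangles DNA, Cdca8, a part of the chromosomal passenger complex, and Ndufa3, a subunit of respiratory complex I. They averaged 15.3 ± 23.9, 5.11 ± 5.90 and 29.2 ± 18.4 CPM in adult and 146 ± 74.9, 104 ± 29.7 and 234 ± 96.3 CPM in E18.5 brain. Top2a and Ndufa3 had log2 fold changes of -3.06 (SE 0.67, edgeR adjusted p = 0.00185) and -3.002 (SE 0.66, edgeR adjusted p = 0.00330), the second of them lost with plate sums (edgeR adjusted p = 0.0798). The share of Cdca8, with 2 adult UMIs, was 18.5 (95% counting interval 5.00 to 155) times as high in E18.5 brain.

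Gene lists were then followed through the 3 comparisons. They were taken from textbook knowledge with earlier results of these data known, so their counts describe and are no independent evidence. Over all tested rows, 10.3%, 17.8% and 21.6% were higher and 11.2%, 20.7% and 23.1% lower than in E18.5 brain, E12.5 brain and yolk sac, and each list's counts stand beside these shares. Of 27 homeostatic microglial genes tested, 19 were higher and 1 lower than in E18.5 brain, 25 higher and 0 lower than in E12.5 brain, and 27 higher and 0 lower than in yolk sac. Their median log2 fold changes were 0.89, 1.55 and 3.87, against -0.03, -0.07 and -0.06 for all tested rows. Of the list, 12 members met the rule for genes that set adult cells apart. Among them was P2ry12, the ADP receptor with which microglial processes find damage, with 533, 473, 281 and 295 CPM in adult libraries, against 49.8 to 223 in E18.5 brain, 65.7 to 97.1 in E12.5 brain and 3.70 to 18.5 in yolk sac. For P2ry12 the log2 fold changes were 1.38, 2.40 and 5.14 (edgeR adjusted p = 1.98e-04, 3.13e-08 and 7.85e-14). Libraries 1 and 2 held more P2ry12 than libraries 3 and 4. Sall1, a transcription factor of microglial identity, averaged 741 ± 114 CPM in adult, 407 ± 98.9 in E18.5 brain, 139 ± 20.5 in E12.5 brain and 3.35 ± 4.58 in yolk sac. For Sall1 the log2 fold changes were 0.89, 2.41 and 7.48 (edgeR adjusted p = 8.82e-04, 2.25e-11 and 3.15e-20). Against E12.5 brain the sign of Sall1 turned, to -1.23, when sequencing batch entered the fit (edgeR adjusted p = 0.501). Ecscr, an endothelial and microglial surface protein, stood at 935, 1109.9, 894 and 939 CPM in adult libraries and at 197 to 389 in E18.5 brain. For Ecscr the log2 fold change was 1.77 ± 0.19 SE (edgeR adjusted p = 1.99e-09). Siglech, a sialic acid-binding lectin, averaged 282 ± 57.3 CPM in adult and 545 ± 200.1 in E18.5 brain and did not pass the test. For Siglech the log2 fold change was -0.93 ± 0.42 SE (edgeR adjusted p = 0.139). The member that was lower was Crybb1, a beta-crystallin, with 889 ± 130.5 CPM in adult and 3101 ± 790.3 in E18.5 brain. The log2 fold change was -1.77 ± 0.21 SE (edgeR adjusted p = 4.70e-07). Crybb1, P2ry12 and Sall1 were named after their values were seen.

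Immediate early genes, which switch on within minutes of a stimulus and also when tissue is dissociated, formed the next high group. Of 19 tested, 9 were higher and 1 lower than in E18.5 brain, 16 higher and 0 lower than in E12.5 brain, and 14 higher and 0 lower than in yolk sac (median log2 fold changes 0.46, 3.87 and 3.50). Jun, a subunit of the transcription factor AP-1, had 2493, 2505, 2036 and 3447 CPM in adult libraries, against 669, 958 and 1167 as the lowest, median and highest of E18.5 brain, 56.6, 65.5, 42.8 and 83.2 in E12.5 brain and 85.1, 72.6, 226 and 133 in yolk sac. Adult library 4 was the highest, and no other library reached the adult range. For Jun the log2 fold changes were 1.54, 5.42 and 4.31 (edgeR adjusted p = 1.48e-05, 1.00e-12 and 8.23e-12). Btg2, an antiproliferative factor, and Nfkbia, the inhibitor of NF-kappaB, averaged 1173 ± 204 and 633 ± 165 CPM in adult and 212 ± 60.1 and 156 ± 68.0 in E18.5 brain (log2 fold changes 2.49 ± 0.19 SE and edgeR adjusted p = 3.95e-13, and 2.04 ± 0.25 SE and edgeR adjusted p = 2.77e-08). Jund averaged 370.1 ± 132 and 128 ± 37.7 CPM (log2 fold change 1.55 ± 0.28 SE and edgeR adjusted p = 4.92e-05). Fos, the partner of Jun, did not pass against E18.5 brain, with 1258 ± 75.3 CPM in adult and 1189 ± 181 in E18.5 brain. Its log2 fold change was 0.11 ± 0.20 SE (edgeR adjusted p = 0.750). It averaged 6.39 ± 6.79 CPM in E12.5 brain, below the adult level. The fitted log2 fold change was 7.37 ± 0.34 SE (edgeR adjusted p = 1.59e-17). Myc, a growth factor-induced transcription factor, passed in none of the 3 comparisons (adult 73.6 ± 27.6 CPM, E18.5 brain 127 ± 33.4 CPM, log2 fold change -0.72 ± 0.37 SE and edgeR adjusted p = 0.167). With every cell thinned to 300 UMIs, 79.4% ± 0.429 of adult cells per library had at least 2 UMIs on the list (SD, n = 4), against 54.5% ± 4.35 in E18.5 brain, 4.46% ± 1.01 in E12.5 brain and 6.09% ± 2.47 in yolk sac. Without thinning the shares were 93.6%, 89.2%, 46.1% and 43.5%. How long each tissue was dissociated and sorted is not given in the sources used here, and its part in this list was not tested.

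Heat shock and chaperone genes did not follow. Of 10 tested, 0 were higher and 4 lower than in E18.5 brain, 1 higher and 4 lower than in E12.5 brain, and 2 higher and 4 lower than in yolk sac, where 11.2%, 20.7% and 23.1% of all rows were lower. Hsp90ab1, a constitutive cytosolic chaperone, averaged 797 ± 174 CPM in adult and 2191 ± 222 in E18.5 brain. On the log2 scale the difference was -1.43 ± 0.14 SE (edgeR adjusted p = 2.08e-10). The mitochondrial chaperonins Hspd1 and Hspe1 averaged 43.7 ± 18.5 and 104.7 ± 46.8 CPM in adult and 134 ± 34.0 and 272 ± 35.4 in E18.5 brain. Their log2 fold changes were -1.55 (SE 0.34, edgeR adjusted p = 7.82e-04) and -1.31 (SE 0.27, edgeR adjusted p = 4.36e-04). Hsp90aa1, the inducible form, averaged 38.4 ± 19.0 and 115 ± 52.9 CPM and did not pass. For Hsp90aa1 the log2 fold change was -1.50 ± 0.92 SE (edgeR adjusted p = 0.288).

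Transcription factors of the macrophage lineage were higher in adult cells or did not pass. Of 16 tested, 8 were higher and 0 lower than in E18.5 brain, 11 higher and 0 lower than in E12.5 brain, and 10 higher and 0 lower than in yolk sac. Mef2a, a MADS-box factor, and Cebpa, a factor of myeloid differentiation, averaged 402 ± 91.5 and 527 ± 129 CPM in adult and 128 ± 25.5 and 204 ± 42.6 in E18.5 brain. Both set the adult cells apart (log2 fold changes 1.68 ± 0.25 SE and edgeR adjusted p = 1.55e-06, and 1.40 ± 0.20 SE and edgeR adjusted p = 9.27e-07). Rel, an NF-kappaB subunit, averaged 95.5 ± 43.6 and 44.4 ± 24.8 CPM in these groups and did not pass. For Rel the log2 fold change was 1.12 ± 0.49 SE (edgeR adjusted p = 0.0994). Of 12 genes of TGF-beta signalling, 8 were higher and 1 lower than in E18.5 brain, 9 higher and 1 lower than in E12.5 brain, and 8 higher and 1 lower than in yolk sac. Pmepa1, a feedback inhibitor induced by TGF-beta, had 1688, 1747, 2005 and 2307 CPM in adult libraries, against 454 to 636 in E18.5 brain, 433 to 673 in E12.5 brain and 14.8 to 29.7 in yolk sac, without overlap. For Pmepa1 the log2 fold changes were 1.897, 1.95 and 6.19 (edgeR adjusted p = 1.74e-12, 3.93e-12 and 4.50e-24). The type I receptor Tgfbr1 averaged 1132 ± 226 CPM in adult, 465.8 ± 78.3 in E18.5 brain, 475 ± 139 in E12.5 brain and 25.5 ± 9.08 in yolk sac. For Tgfbr1 the log2 fold changes were 1.31, 1.27 and 5.41 (edgeR adjusted p = 4.17e-07, 1.26e-06 and 1.14e-20). Skil, a repressor of Smad activity, averaged 209.9 ± 31.1 CPM in adult and 88.6 ± 18.7 in E18.5 brain. The log2 fold change was 1.26 ± 0.32 SE (edgeR adjusted p = 0.00321). Tgfbi, an extracellular matrix protein induced by TGF-beta, went the other way against E12.5 brain (42.9 ± 28.8 CPM in adult and 102 ± 33.4 in E12.5 brain, log2 fold change -1.29 ± 0.45 SE and edgeR adjusted p = 0.0197). The sign of Tgfbi turned when sequencing batch entered the fit (0.14), and its call was lost without adult library 1 or 3 or E12.5 brain library 2 (edgeR adjusted p = 0.0614 to 0.103). It was also lost at 500 UMIs per cell (edgeR adjusted p = 0.103) and with DESeq2 (adjusted p = 0.0525).

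Antigen presentation genes were partly higher. Of 11 MHC class I genes tested, 4 were higher and 0 lower than in E18.5 brain, 6 higher and 1 lower than in E12.5 brain, and 5 higher and 1 lower than in yolk sac. The row of B2m, the invariant light chain, averaged 472 ± 146 CPM in adult and 107 ± 39.0 in E18.5 brain. Its log2 fold change was 2.16 ± 0.27 SE (edgeR adjusted p = 2.03e-07). Psmb9, an immunoproteasome subunit, averaged 163 ± 27.5 and 83.3 ± 16.8 CPM (log2 fold change 0.99 ± 0.27 SE and edgeR adjusted p = 0.00576). The Psmb9 call was lost with no filter on low counts (edgeR adjusted p = 0.0694) and in thinned libraries (edgeR adjusted p = 0.0648). Tap2, a peptide transporter, averaged 81.8 ± 28.2 and 42.8 ± 24.3 CPM and did not pass. The fitted log2 fold change was 0.90 ± 0.45 SE (edgeR adjusted p = 0.158). Of 4 MHC class II genes tested, 2 were higher and 0 lower than in E18.5 brain, 3 higher and 0 lower than in E12.5 brain, and 3 higher and 1 lower than in yolk sac. The peptide-loading chains H2-DMa and H2-DMb, the second counted on 1 row for both of its copies, set adult cells apart. They averaged 519 ± 114 and 279 ± 27.7 CPM in adult and 180.2 ± 61.4 and 87.7 ± 16.1 in E18.5 brain. Their log2 fold changes were 1.55 (SE 0.23, edgeR adjusted p = 1.53e-06) and 1.70 (SE 0.29, edgeR adjusted p = 2.14e-05). The surface chains H2-Aa and H2-Eb1 had no UMI in adult cells. Cd74, the invariant chain, averaged 57.7 ± 22.7 CPM in adult and 105.3 ± 40.02 in E18.5 brain. On the log2 scale the difference was -0.82 ± 0.43 SE (edgeR adjusted p = 0.173). H2-Aa, H2-Eb1 and Cd74 were named after their values were seen.

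Lysosomal genes moved in both directions against E18.5 brain. Of 28 tested, 6 were higher and 10 lower than in E18.5 brain, 14 higher and 4 lower than in E12.5 brain, and 16 higher and 3 lower than in yolk sac, and the lower counts against the E12.5 groups were under the shares of all rows, 20.7% and 23.1%. Cathepsin L, encoded by Ctsl, was lower, with 533, 187, 114 and 335 CPM in adult libraries and 1720.4 to 3405 in E18.5 brain. For Ctsl the log2 fold change was -3.21 ± 0.42 SE (edgeR adjusted p = 5.11e-05). Cathepsin B, encoded by Ctsb, was lower too, with 164 ± 60.4 CPM in adult and 685 ± 107 in E18.5 brain. For Ctsb the log2 fold change was -1.998 ± 0.59 SE (edgeR adjusted p = 0.0242). Ctsd, given above, was higher. Lipa, the lysosomal acid lipase, averaged 29.1 ± 16.4 and 60.7 ± 24.7 CPM and did not pass. The log2 fold change was -1.07 ± 0.52 SE (edgeR adjusted p = 0.147). The Ctsb call was lost without adult library 2, 3 or 4 (edgeR adjusted p = 0.0582 to 0.0677) and with plate sums (edgeR adjusted p = 0.232). Of 8 complement genes, 3 were higher and 1 lower than in E18.5 brain, 5 higher and 1 lower than in E12.5 brain, and 5 higher and 3 lower than in yolk sac. Besides C1q, Itgb2, the beta chain of complement receptor 3, was higher (323 ± 70.1 CPM in adult and 195 ± 36.4 in E18.5 brain, log2 fold change 0.77 ± 0.22 SE and edgeR adjusted p = 0.00752), though not without adult library 1 (edgeR adjusted p = 0.0616). The Itgb2 call was also lost with plate sums, no filter on low counts and thinned libraries (edgeR adjusted p = 0.0929, 0.115 and 0.285). The alternative pathway factor Cfb had 1 UMI in adult cells, and its share was 20.4 (95% counting interval 3.52 to 818), 65.2 (95% counting interval 11.6 to 2585) and 112 (95% counting interval 19.99 to 4441) times as high in E18.5 brain, E12.5 brain and yolk sac. Properdin, encoded by Cfp, had no adult UMI and was at least 12.7-fold lower in adult than in yolk sac. Of 9 chemokine and cytokine genes, 1 was higher and 6 lower than in E18.5 brain, 3 higher and 0 lower than in E12.5 brain, and 2 higher and 4 lower than in yolk sac. The row of the chemokine Ccl3 had 60.3, 98.9, 52.0 and 201 CPM in adult libraries and 1112 to 1432 in E18.5 brain, with no overlap. Its log2 fold change was -3.64 ± 0.34 SE (edgeR adjusted p = 6.28e-08). The monocyte attractant Ccl2 averaged 11.1 ± 8.36 CPM in adult and 90.9 ± 35.3 in E18.5 brain. The fitted log2 fold change was -2.93 ± 0.68 SE (edgeR adjusted p = 0.00135). The growth factor Csf1 averaged 33.3 ± 31.0 and 217 ± 80.7 CPM (log2 fold change -2.66 ± 0.49 SE and edgeR adjusted p = 1.20e-04). Cxcl16, a membrane-bound chemokine, averaged 121 ± 22.6 and 61.8 ± 26.6 CPM and did not pass. On the log2 scale the difference was 1.01 ± 0.39 SE (edgeR adjusted p = 0.0551).

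Genes that mark phagocytic microglia of early life and of disease were mostly lower in adult cells, beyond Apoe. Of 13 tested, 1 was higher and 8 lower than in E18.5 brain, 2 higher and 7 lower than in E12.5 brain, and 3 higher and 9 lower than in yolk sac. Spp1, or osteopontin, had 1 UMI in adult cells, and its share in E18.5 brain was 61.2 (95% counting interval 10.8 to 2429) times as high (edgeR adjusted p = 0.0364). That call was lost without any single adult library or E18.5 library 2, 3 or 4 (edgeR adjusted p = 0.0524 to 0.0992). It was also lost with plate sums, at 500 UMIs per cell, with no filter on low counts, with the 2 groups fitted alone and within the adult batch (edgeR adjusted p = 0.0592 to 0.237). Axl, a receptor for dying cells, had 2 adult UMIs, and its share in E18.5 brain was 13.8 (95% counting interval 3.69 to 116) times as high (edgeR adjusted p = 0.00672). Fabp5, a fatty acid-binding protein, had no adult UMI and was at least 2.72-fold lower than in E18.5 brain, where the test did not pass (edgeR adjusted p = 0.190). Trem2 was the 1 member of the list that was higher in adult than in E18.5 brain. Of 11 interferon-response genes, 0 were higher and 1 lower than in E18.5 brain, 0 higher and 3 lower than in E12.5 brain, and 0 higher and 11 lower than in yolk sac. Against the brain groups these counts lie near the shares of all rows that were lower, 11.2% and 20.7%. Ifi27l2a had 2 adult UMIs, and its share was 8.15 (95% counting interval 2.14 to 69.3) and 181 (95% counting interval 50.1 to 1499) times as high in E18.5 brain and yolk sac (edgeR adjusted p = 0.00832 and 1.85e-13).

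Surface receptors were followed next. Of 15 G protein-coupled receptors tested, 6 were higher and 1 lower than in E18.5 brain, 11 higher and 0 lower than in E12.5 brain, and 11 higher and 1 lower than in yolk sac. Gpr183, a receptor for oxysterols, averaged 547 ± 119 CPM in adult and 189 ± 36.3 in E18.5 brain. Gpr56, an adhesion receptor, averaged 937 ± 29.1 and 349 ± 32.7 CPM. Both set adult cells apart (log2 fold changes 1.58 ± 0.22 SE and edgeR adjusted p = 4.70e-07, and 1.46 ± 0.18 SE and edgeR adjusted p = 3.37e-08). Lpar6, a lysophosphatidic acid receptor, was lower (10.2 ± 11.8 CPM in adult and 71.7 ± 20.1 in E18.5 brain, log2 fold change -2.61 ± 0.81 SE and edgeR adjusted p = 0.0177). Gpr160 did not pass (44.4 ± 36.1 and 85.0 ± 49.95 CPM, log2 fold change -0.82 ± 0.66 SE and edgeR adjusted p = 0.422). Of 10 integrin and adhesion genes, 4 were higher and 2 lower than in E18.5 brain, 4 higher and 1 lower than in E12.5 brain, and 6 higher and 0 lower than in yolk sac. The numbers lower are close to or under the shares of all rows, 11.2%, 20.7% and 23.1%. Selplg and Itgb2 were among the higher and Itga9, an integrin alpha chain, was among the lower (88.4 ± 42.9 CPM in adult and 168 ± 36.7 in E18.5 brain, log2 fold change -0.92 ± 0.32 SE and edgeR adjusted p = 0.0344). Itga6, the laminin-binding alpha 6 chain, did not pass (206 ± 83.5 and 332 ± 68.4 CPM, log2 fold change -0.65 ± 0.25 SE and edgeR adjusted p = 0.0615). The Lpar6 call was lost without adult library 2 or 4 (edgeR adjusted p = 0.0640 and 0.0553) and with plate sums (edgeR adjusted p = 0.125). The Itga9 call was lost without adult library 2 or 3 or E18.5 library 5 (edgeR adjusted p = 0.0610 to 0.177), with plate sums (edgeR adjusted p = 0.0705) and in thinned libraries (edgeR adjusted p = 0.201).

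Genes of DNA replication and mitosis were low in adult cells. Of 28 tested, 0 were higher and 21 lower than in E18.5 brain, 0 higher and 23 lower than in E12.5 brain, and 0 higher and 22 lower than in yolk sac (median log2 fold changes -1.72, -2.04 and -1.92). Tpx2, a spindle assembly factor, had no UMI in the 631 adult cells and was at least 9.74-fold, 13.8-fold and 8.35-fold lower than in E18.5 brain, E12.5 brain and yolk sac. Birc5, or survivin, had 1 UMI and Mki67, the antigen Ki-67, had 3 UMIs. Their shares in E18.5 brain were 28.5 (95% counting interval 4.98 to 1140.5) and 14.3 (95% counting interval 4.77 to 70.1) times as high. Cdk1, the kinase of mitotic entry, was at 10.1, 22.0, 145 and 0 CPM in adult libraries, against 77.4 to 154 in E18.5 brain. Adult library 3 thus lay within the E18.5 range and the test did not pass. For Cdk1 the log2 fold change was -1.22 ± 0.48 SE (edgeR adjusted p = 0.0661). At 300 UMIs per cell, at least 2 UMIs on the list were found in 12.3%, 9.49%, 18.4% and 7.48% of cells in adult libraries 1 to 4, against 31.8% to 43.2% in E18.5 libraries, 47.6% to 60.3% in E12.5 brain and 33.1% to 42.4% in yolk sac, with no overlap. Without thinning, the adult libraries averaged 33.4% and the E18.5 libraries 77.0%.

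Energy and ribosome genes were low as well. Of 38 nuclear genes of the respiratory chain, 0 were higher and 21 lower than in E18.5 brain, 0 higher and 34 lower than in E12.5 brain, and 0 higher and 36 lower than in yolk sac (median log2 fold changes -0.86, -1.79 and -1.73). Atp5c1, the gamma subunit of ATP synthase, averaged 48.5 ± 24.2 CPM in adult and 208 ± 70.7 in E18.5 brain. For Atp5c1 the log2 fold change was -2.03 ± 0.35 SE (edgeR adjusted p = 2.33e-05). Cox6c, a cytochrome oxidase subunit, had 3 adult UMIs and did not pass against E18.5 brain (edgeR adjusted p = 0.246). Of 11 glycolysis genes, 1 was higher and 7 lower than in E18.5 brain, 1 higher and 6 lower than in E12.5 brain, and 1 higher and 6 lower than in yolk sac. The pyruvate kinase gene Pkm2 averaged 262 ± 100.3 CPM in adult and 1054 ± 89.2 in E18.5 brain. The log2 fold change was -1.97 ± 0.20 SE (edgeR adjusted p = 3.13e-10). Ldha, lactate dehydrogenase A, averaged 162 ± 41.7 and 585 ± 67.7 CPM (log2 fold change -1.81 ± 0.19 SE and edgeR adjusted p = 8.91e-10). The member that was higher was Slc2a5, a fructose transporter of microglia, with 1140.4 ± 210.3 CPM in adult and 452 ± 35.1 in E18.5 brain. Its log2 fold change was 1.36 ± 0.16 SE (edgeR adjusted p = 1.50e-08). Slc2a5 was named after its value was seen. Hk1, the first enzyme of glycolysis, did not pass (44.5 ± 31.1 and 15.3 ± 5.26 CPM, log2 fold change 1.55 ± 0.63 SE and edgeR adjusted p = 0.0769). Of 46 cytosolic ribosomal protein genes, 0 were higher and 28 lower than in E18.5 brain, 0 higher and 34 lower than in E12.5 brain, and 0 higher and 38 lower than in yolk sac. Together the ribosomal rows held 1.74% ± 0.248 of adult UMIs, against 4.49% ± 0.214 in E18.5 brain, 7.00% ± 1.41 in E12.5 brain and 7.80% ± 0.463 in yolk sac. Rpl26 averaged 142 ± 65.2 CPM in adult and 1741 ± 384 in E18.5 brain. The fitted log2 fold change was -3.60 ± 0.30 SE (edgeR adjusted p = 8.51e-09). Rpl23 averaged 110.3 ± 117 and 513 ± 388 CPM with a wide spread and did not pass. On the log2 scale the difference was -2.29 ± 1.15 SE (edgeR adjusted p = 0.183). Ribosomal genes have near-identical copies in the genome, among which reads may be split. The lower UMI totals of adult cells move with these lists, and their part in them was not tested. With every library thinned to 74562 UMIs, 333 rows were lower than in E18.5 brain.

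**Figure D3:**
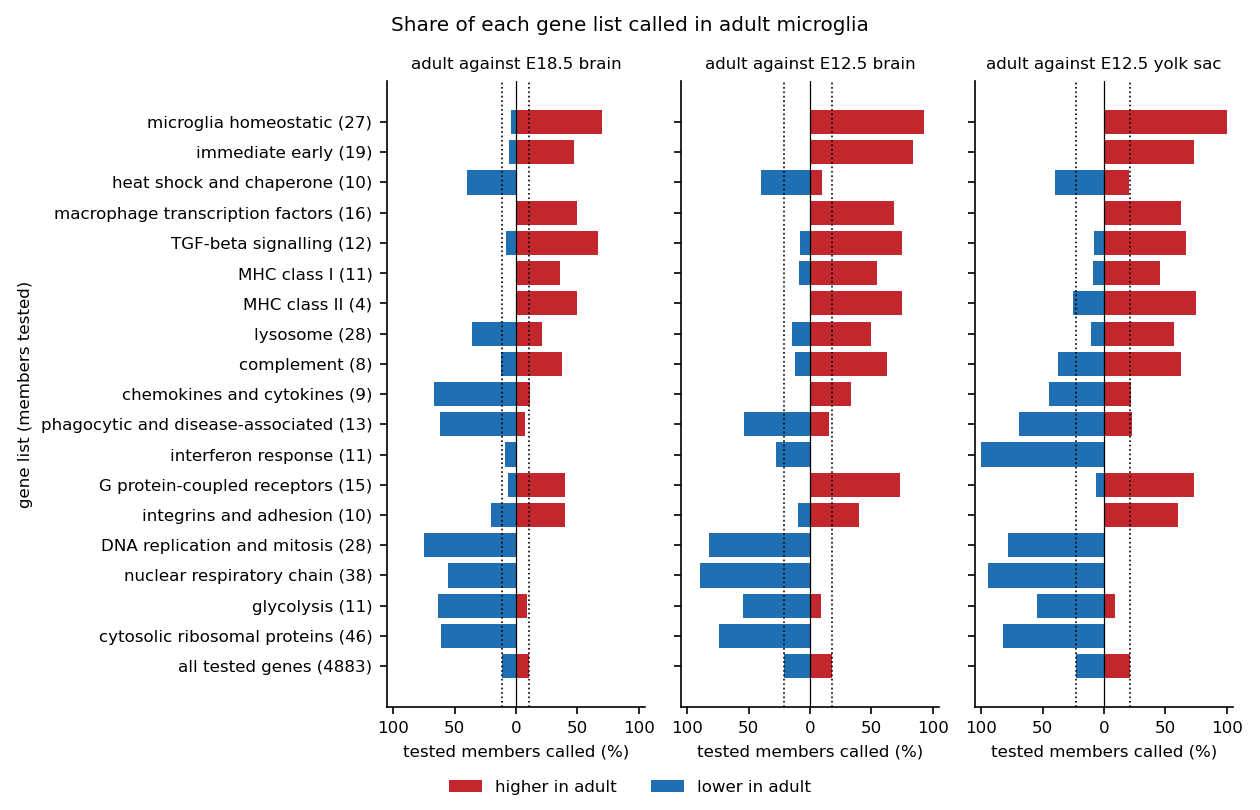
Share of the tested members of each gene list that was called higher (red, to the right) or lower (blue, to the left) in adult cells against E18.5 brain, E12.5 brain and E12.5 yolk sac, with the number of members tested in brackets and dotted lines at the shares over all 4883 tested rows. Homeostatic, immediate early, transcription factor and TGF-beta lists extend to the right in all 3 panels, and mitosis, respiratory chain, glycolysis and ribosomal lists to the left.

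A few genes differed strongly among the 4 adult libraries. Prtn3, the neutrophil granule protease proteinase 3, had 543, 6406, 3595 and 536 CPM in libraries 1 to 4, against 51.6 to 388 in E18.5 brain, 16.2 to 74.4 in E12.5 brain and 104 to 316 in yolk sac. Libraries 2 and 3, which lay on different plates, were the high ones. At least 1 UMI was found in 363 of 631 adult cells, and at most 9 in a cell. For Prtn3 the log2 fold changes were 4.03, 5.90 and 3.63 (edgeR adjusted p = 7.46e-04, 1.05e-04 and 0.00136). The granule genes Mpo and Elane followed another order, with 1839, 1253, 104 and 295 CPM for Mpo and 402, 945, 62.3 and 389 for Elane in libraries 1 to 4. Adult libraries lay above E12.5 brain for both (56.6 to 68.6 and 3.74 to 17.5 CPM), and Mpo did not pass against E18.5 brain (18.4 to 968 CPM, log2 fold change 1.57 ± 0.81 SE and edgeR adjusted p = 0.197). Elane did (log2 fold change 2.85 ± 0.81 SE and edgeR adjusted p = 0.0211), though not without adult library 2 (edgeR adjusted p = 0.121), with plate sums (edgeR adjusted p = 0.173), with no filter on low counts (edgeR adjusted p = 0.0626) or at 500 UMIs per cell (edgeR adjusted p = 0.0609). The other neutrophil markers were nearly absent, as S100a8, S100a9, Ngp and Retnlg had 0 UMIs and Camp had 1. The neutrophil list as a whole held 1514 adult UMIs, 1220 to 8604 CPM per library. Ly6c2, a monocyte surface antigen, had 0, 44.0, 1870.3 and 53.6 CPM in libraries 1 to 4, and its 188 UMIs lay in 90 cells, at most 8 in a cell. The other 5 monocyte markers, Ccr2, Plac8, Vcan, Chi3l3 and Fn1, had no adult UMI. H2-Ab1, an MHC class II beta chain, had 442, 11.0, 10.4 and 13.4 CPM, nearly all of it in library 1 and in 45 cells with at most 2 UMIs. Elane, Mpo, Ly6c2 and H2-Ab1 were chosen after their values were seen, and the source of these UMIs was not tested.

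Markers of the macrophages of the brain's borders, cells that the gate could also pass, summed to a lower level in adult than in each other group. The 10 border macrophage markers summed to 413 CPM in adult libraries (353 to 510), against 1178 in E18.5 brain, 894 in E12.5 brain and 7955 in yolk sac. In adult cells 5 of the 10 were at 0. Of their 147 adult UMIs, 123 lay on the row of Stab1, and no adult cell had more than 3 on it. F13a1, a coagulation factor subunit and a marker on that list, had 20.1, 0, 177 and 0 CPM in adult libraries 1 to 4, against 0 to 44.2 in E18.5 brain, 0 to 20.2 in E12.5 brain and 294 to 679 in yolk sac. Its 19 adult UMIs lay in 18 cells, nearly all of them in library 3, the library that was high in Ly6c2. F13a1 did not pass against E18.5 or E12.5 brain (log2 fold changes 1.32 ± 1.06 SE and edgeR adjusted p = 0.428, and 2.23 ± 1.13 SE and edgeR adjusted p = 0.136), and without adult library 3 these were -1.40 and -0.449. It was lower than in yolk sac (log2 fold change -3.14 ± 0.77 SE and edgeR adjusted p = 0.00350), though not called with plate sums (edgeR adjusted p = 0.0890), and was named after its values were seen. Ms4a7, a marker of border macrophages, had no adult UMI and was named after its value was seen. It was at least 2.72-fold, 3.96-fold and 49.9-fold lower in adult than in E18.5 brain, E12.5 brain and yolk sac. Markers of B cells, red cells, astrocytes and oligodendrocytes held 17, 16, 50 and 56 UMIs of the 361302 in adult cells.

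**Figure D4:**
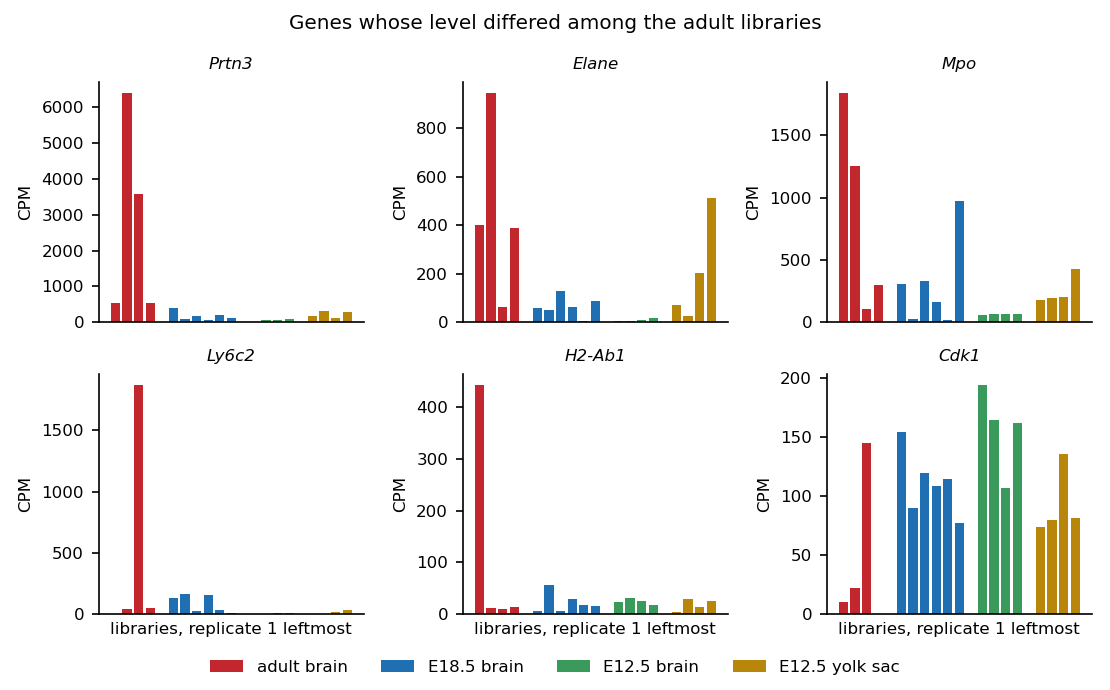
Level in CPM of 6 genes that differed among the 4 adult libraries, with 1 bar per library and the adult libraries at the left in each panel. Prtn3 was high in adult libraries 2 and 3, Ly6c2 and Cdk1 in library 3, H2-Ab1 in library 1, and Mpo in libraries 1 and 2.

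Cell-to-cell variation was described by a dispersion index, the variance of a gene's UMIs over the cells of a library relative to that of random sampling at each cell's depth, which is 1 for sampling alone. The index was over 1.3 in each of the 4 adult libraries for 25 of 208 gene rows with at least 40 UMIs per library (12.0%). With 3 libraries to meet, the number was 30, 37, 33 and 44 without adult library 1, 2, 3 and 4. The median index over the 208 rows was 1.37, 1.28, 1.26 and 1.26 in libraries 1 to 4. Taken singly, these libraries had 123, 100, 87 and 86 rows over 1.3, so the threshold lay near the median row of each. Apoe varied most in relative terms, with an index of 4.22, 3.14, 2.07 and 2.46. At least 1 UMI was found in 224 of 631 cells, and 1 cell had 23. The coefficient of variation beyond sampling was 1.79 for Apoe in adult brain, against 0.729 in E18.5 brain and 0.595 in E12.5 brain. The adult coefficient is the square root of the median squared coefficient over libraries. For the other groups it is the plain median over libraries. Ctss, the lysosomal protease cathepsin S, had an index of 1.42, 1.34, 2.63 and 3.34 and a coefficient of 1.35 in adult brain, against 0.430 in E18.5 brain and 0.698 in E12.5 brain. Adult libraries 1 to 4 had coefficients of 0.713, 0.768, 1.97 and 1.75. Libraries 1 and 2 thus lay within the library ranges of E18.5 brain (0.334 to 1.003) and E12.5 brain (0.423 to 1.315). Ctss was found in 266 cells, at most 14 UMIs in one. It averaged 1528 ± 301 CPM in adult and 4499.8 ± 1408 in E18.5 brain. For Ctss the log2 fold change was -1.53 ± 0.37 SE (edgeR adjusted p = 0.00787). With plate sums the call of Ctss was lost (edgeR adjusted p = 0.138). Cells are not replicates, so the differences of coefficients between groups are descriptions and were not tested. Apoe and Ctss were also lower in adult than in E18.5 brain, so their coefficients in these groups were taken at unlike levels.

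Malat1, a nuclear long noncoding RNA, differed both between and within libraries, with 1397, 1275, 2816 and 3876 CPM in libraries 1 to 4 and an index of 1.94, 1.99, 4.66 and 3.78. Its coefficient of variation was 1.20 in adult brain, 0.824 in E18.5 brain and 1.36 in E12.5 brain. Fos and Jun, the AP-1 subunits, had coefficients of 1.19 and 0.778 in adult cells, and Fos was found in 242 and Jun in 397 of 631 cells. In E18.5 brain the coefficients of Fos and Jun were 0.995 (0.808 to 1.139 over libraries) and 0.908 (0.855 to 1.122), so that of Jun was lower in adult cells. Across cells within a library their residuals correlated weakly (mean Pearson's r 0.13 over the 4 libraries, 631 cells in all). Dhrs3, which reduces retinaldehyde, Zfhx3, a homeobox factor, and Epb4.1l2, a membrane skeleton protein, had coefficients of 1.11, 0.982 and 0.901. In E18.5 brain these were 0.837, 1.07 and 0.6225. Txnip, an inhibitor of thioredoxin, and Sirpa, the receptor for CD47, had coefficients of 0.860 and 0.557, against 0.596 and 0.427 in E18.5 brain. Zfhx3 and Epb4.1l2 also set adult cells apart. They averaged 1117 ± 84.4 and 1305 ± 136 CPM in adult and 381 ± 75.8 and 606 ± 68.3 in E18.5 brain (log2 fold changes 1.58 ± 0.18 SE and edgeR adjusted p = 1.50e-08, and 1.13 ± 0.19 SE and edgeR adjusted p = 4.11e-05). Txnip was higher in adult than in E18.5 brain (1152 ± 96.5 and 733 ± 111 CPM, log2 fold change 0.68 ± 0.18 SE and edgeR adjusted p = 0.00458), though not with plate sums (edgeR adjusted p = 0.128). Dhrs3 and Sirpa did not pass (log2 fold changes 0.42 ± 0.19 SE and edgeR adjusted p = 0.103, and -0.09 ± 0.16 SE and edgeR adjusted p = 0.744). Actb had a coefficient of 0.483 in adult cells, against 0.262 in E18.5 brain and 0.239 in E12.5 brain, where its level was higher.

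Abundant identity genes varied less in relative terms. The coefficient was 0.312 for Cst3, although its index was 3.16, 4.07, 3.21 and 3.81, since an index grows with the level, and 0.316 and 0.378 for Selplg and Tmem119. For Selplg and Tmem119 it was 0.728 and 0.617 in E18.5 brain, where both genes were lower. The 12 named variable genes were at most weakly correlated. Over their 66 pairs the mean r within libraries ran from -0.09 to 0.27 with a median of 0.00. Actb with Ctss was the 1 pair over 0.2. Pairings of these 12 with all 208 rows numbered 2484, with pairs among the 12 counted from both sides. Of them 1 passed 0.3, Actb with Lrrc58 at a mean r of 0.48 (0.42 to 0.53 over the 4 libraries, 631 cells). It was found by scanning these pairs and is given as a description of cells that share a library. With every cell thinned to 300 UMIs, 88 rows had enough UMIs and 7 of them, all among the 25, kept an index over 1.3 in each library.

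**Figure D5:**
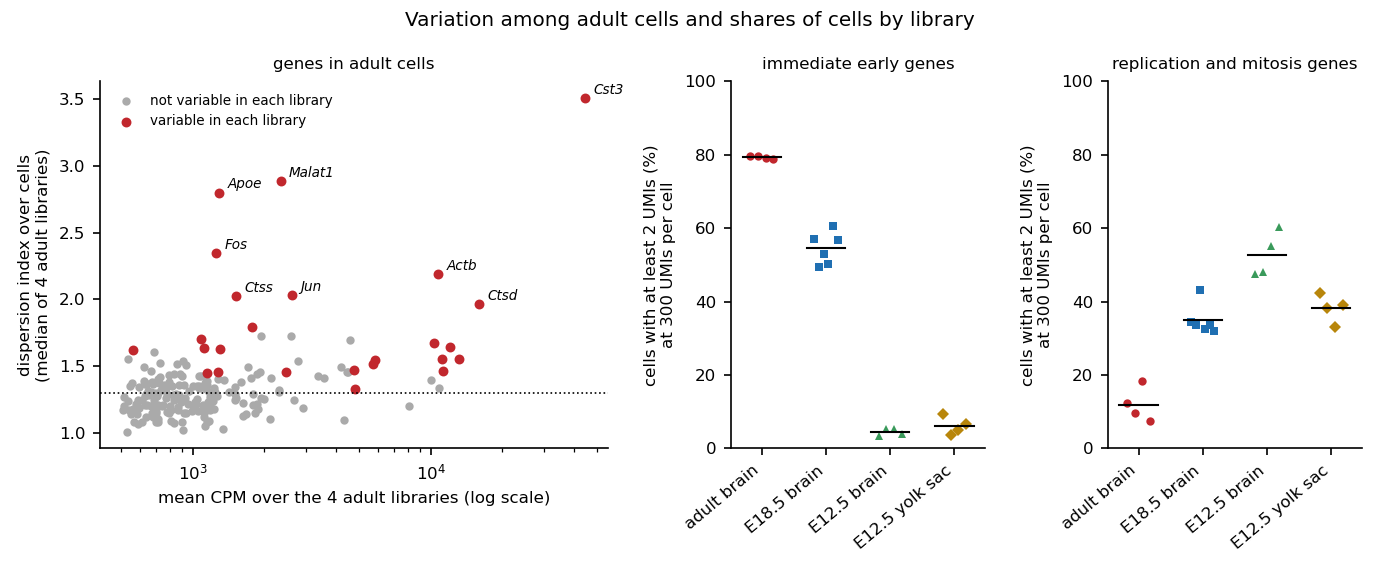
Left, dispersion index over adult cells (median of the 4 adult libraries) against mean CPM on a log scale for 208 gene rows, with the 25 rows over 1.3 in each library in red and the threshold dotted, where Cst3 is the highest point. Middle and right, share of cells per library with at least 2 UMIs on the immediate early list and on the replication and mitosis list at 300 UMIs per cell, with 1 point per library and a line at the group mean. The 4 adult libraries sit above all others for immediate early genes and below all others for replication and mitosis genes.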

How the data were processed

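The authors deposited 1 table of whole-number UMI counts per gene row and well for all 18 libraries, with a well annotation that gives each well's library, and these counts were used unchanged. No well ID was shared between libraries. Reads were demultiplexed with bcl2fastq 2.15.0.4 and the build was mm9, per the submitters' processing notes; no source used here names the aligner, the UMI collapsing or the gene annotation. The count table has 27297 gene rows, of which 2109 join several symbols, and no spike-in rows. No filter for doublets was run, since wells were annotated as holding 1 sorted cell; 8 adult wells annotated as empty had a median of 22.5 UMIs.

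For each library, UMIs were added up over its kept cells and tested with edgeR 4.0.16 in R 4.3.3 (quasi-likelihood, robust, TMM, filterByExpr, Benjamini-Hochberg over 4883 rows), in 1 fit of all 18 libraries. Fold bounds set 3 counts over a group as the floor; intervals are 95% and cover counting error only. Dispersion was computed within each adult library with Python 3.11.15. Both steps were run on simulated data, the dispersion step with the cell totals of adult library 1 alone, and the outcomes are not given here. Replicate numbers are accession order. Named genes were the 20 most abundant, the 12 higher and 8 lower set-apart genes with the largest smallest-of-3 fold change, the 12 most variable, up to 3 called members and 1 uncalled per list, and markers; others are stated as chosen after their values were seen. The text leaves out a few of them. The members and lists were chosen with earlier results of these data known. Alternatives were RLE scaling, DESeq2 1.42.0, no count filter, other cell minimums, thinning, plate sums, batch and left-out libraries.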

Additional observations from a re-analysis of the deposited data

Results flagged for a closer look

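Of 217 groups of 4 to 6 libraries checked for 1 library far from the others, 11 were flagged. Chance alone flags about 1 group in 20 if values are normally distributed. A gene found in only 1 library of a group is always flagged, as were Thrsp, Garnl3 and Fam167b below, so that rate does not cover them. In adult brain, library 3 stood apart with 11232 CPM of C1qc (nearest other adult library 10736), 447 CPM of Pmp22 (nearest 582), 187 CPM of Slc1a3 (nearest 121) and 1008 CPM of Txnip (nearest 1187), and library 1 with 191 CPM of Tgm2 (nearest 93.9). Library 3 was thus the one flagged for 4 of the 5 adult genes. In E18.5 brain, library 6 held the 1 UMI of Thrsp (5.53 CPM, the others 0), and library 1 had 637.5 CPM of Dhrs3 (nearest 407). In yolk sac, library 4 had 3.71 CPM of Garnl3 and library 2 had 50.8 CPM of Fam167b, while the other 3 libraries were at 0 each time. Yolk sac library 3 had 309084 UMIs in all (nearest 275579) and a median of 1708 UMIs per cell (nearest 1458).

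The 129 adult wells under 300 UMIs, which no comparison used, held 4.41% of their UMIs on the 14 microglial markers, against 2.66% in the 8 empty adult wells, which held 188 UMIs in all, and 5.15% in the kept adult cells. Of these wells, 73.6% had at least 1 UMI on the 5 leading markers.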

How the results depend on the processing

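No paired analysis was possible, since the adult libraries shared no plate and no subject number with another group. Replicate numbers were given in accession order only. Of the called differences of named genes that each alternative could fit, RLE scaling lost 0 of 121, DESeq2 1 of 121, the groups compared alone 1 of 117, the adult libraries' batch alone (chosen after seeing the data) 1 of 99, thinned libraries 4 of 106, the batch covariate 6 of 121 besides 2 that it reversed, a minimum of 500 UMIs per cell 7 of 120, no count filter 8 of 121 and plate sums 18 of 121. Each of the 2 reversals of a called difference came with the batch covariate (Sall1 -1.23 and Tgfbi 0.14, both against E12.5 brain). Neither was called in that fit (edgeR adjusted p = 0.501 and 0.922), and their cause was not tested. Differences that were not called against E18.5 brain changed sign. These were Cx3cr1 (-0.10 with no count filter, -0.0689 to 0.220 without 1 library), F13a1 (-1.40 to 1.70 without 1 library, and -0.449 to 2.88 against E12.5 brain), Fcrls (0.0433 thinned), Sirpa (0.0308 thinned), Fos (-0.0730 with no filter and -0.0670 at 500 UMIs) and Lgmn (-0.15 with no filter, -0.0965 at 500 UMIs, -0.0138 per plate, -0.00200 in the batch, -0.0237 to 0.0512 without 1 library).

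Plate sums left 291 rows higher than in E18.5 brain, and a log2 fold change of at least 1 left 323. Libraries thinned to 74562 UMIs gave 333 rows lower than in E18.5 brain, 530 higher and 533 lower than in E12.5 brain, and 637 higher and 595 lower than in yolk sac, with 115 higher and 103 lower rows set apart (98 and 97 shared with the full data). The batch covariate gave 356 higher and 554 lower rows against E12.5 brain and 95 set apart higher. With no count filter, 1702 rows were lower than in yolk sac. Of variable rows, 7 of 88 remained at 300 UMIs per cell and 10 over an index of 1.5.

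Leaving out 1 library gave 398 to 478 higher and 467 to 557 lower rows against E18.5 brain, 761 to 858 and 892 to 955 against E12.5 brain, 982 to 1051 and 1035 to 1109 against yolk sac, and 172 to 195 and 192 to 249 set apart. Variable rows numbered 30 to 44, with 44 without adult library 4 (all 25 among them). With 1 adult library left out, differences in median UMIs per cell ran from -481.9 to -452.6, -1354.8 to -1325.4 and -1000.0 to -970.7 against E18.5 brain, E12.5 brain and yolk sac. Without any 1 adult library, the exact permutation test did not pass against E12.5 brain (adjusted p = 0.0857). Low adult totals limit what could be called absent.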
